A study of Mus musculus with 6 samples.

Results

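The constitutive proteasome subunit genes are the genes whose symbols are Psma, Psmb, Psmc or Psmd followed by digits, without the inducible or tissue-restricted Psmb8, Psmb9, Psmb10 and Psmb11. Every probe set annotated with 1 such symbol was taken, which gave 41 of the 35512 probe sets of the array and 35 of the 19938 genes with a symbol. They comprise 15 genes of the 20S core (8 of the alpha type and 7 of the beta type), 9 genes of the base and 8 of the lid of the 19S regulatory particle, and 3 genes of chaperones that assemble the base. RNA came from mouse leukemia cells of a line with the MLL-AF10 fusion, cultured in RPMI with serum and WEHI conditioned medium. The tested cells received 0.5 µM of an IKK inhibitor (3 arrays) and their controls received vehicle (3 arrays). The sources used here do not give the compound's name, the time of treatment or whether replicates are separate cultures. The p-values therefore set the difference between the groups only against the scatter of these arrays, and that scatter may be technical. All samples carry the same labelled line, so the values describe that line alone.

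The 26S proteasome degrades proteins that carry ubiquitin chains. Its 20S core is a barrel of stacked rings, with alpha subunits in the outer rings and beta subunits, among them the proteolytic ones, in the inner rings. The 19S particle caps the barrel: its base holds a ring of ATPases that unfold the substrate, and its lid removes the ubiquitin chain. In NF-kB signalling the proteasome destroys IkB proteins after the IKK kinases have phosphorylated them, and it trims the NF-kB precursors. Transcription of proteasome genes is known to be driven by NRF1 (Nfe2l1), which binds antioxidant response elements in their promoters.

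Array intensities of the deposited table had medians between 112 and 124 on the 6 arrays. The number of arrays limits the precision. Hoxa9, Meis1, Hoxa10, Spi1, Ptprc and Itgam, which fit a myeloid MLL fusion leukemia, had mean intensities of at least 1076 in both groups, while summed intensities of T cell, B cell, erythroid and stromal marker lists lay between 441 and 863 on every array. Over all genes tested, 7.10% were called higher and 6.75% lower with the inhibitor (limma, adjusted p under 0.05). Of 15 monocyte and macrophage markers tested, 13 were higher and none was lower with the inhibitor. Their summed intensity was 30597 to 32159 on inhibitor arrays and 19025 to 19623 on vehicle arrays. Of 9 genes of granulocyte and monocyte progenitors, 7 were lower, with sums of 17492 to 18022 on inhibitor arrays and 20677 to 21368 on vehicle arrays. These shifts accompanied every result below, and their part in it was not tested. Fewer cells of a type and less RNA per cell cannot be told apart in such bulk samples.

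Proteasome subunit genes were on the whole slightly lower with the inhibitor, but few of them passed the test. Psmc1 and Psmc4, both ATPase genes of the 19S base, fell by 14.6% and 14.2%. No member was called higher, and no gene of the 20S core was called. The 2 called genes are 5.71% of the 35 members, near the 6.75% of all 19847 genes tested that were called lower, so the count of calls does not set the members apart (limma, Benjamini-Hochberg adjusted p under 0.05 over all genes). For calls of higher genes the background was 7.10%, and for both directions together it was 13.9%. At an unadjusted p under 0.05, 11 of the 35 members were lower and 1 was higher, beside 13.9% of all genes lower and 13.3% higher. Among the 9924 genes at or above the median intensity, where 34 of the members lie, 23.5% were lower and 18.3% higher at that threshold. The median log2 fold change of the 35 members was -0.097, a level 6.53% below that with vehicle, beside 0.0064 over all genes tested. In all, 29 of the 35 (82.9%) had a log2 fold change below 0, as had 48.1% of all genes tested. The 3 inhibitor arrays lay below the 3 vehicle arrays for 18 members (51.4%), against 17.2% of all genes, and above them for 2 members (5.71%), against 15.7% of all genes (32.9% in either direction).

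Brighter genes had larger shares of this kind, and 34 of the 35 members lay above the median intensity of the genes tested. Among the 9924 genes there, 12.2% were called lower and 11.2% higher, 29.5% had all inhibitor arrays below all vehicle arrays and 22.5% above them, 54.0% had a log2 fold change below 0, and the median log2 fold change was -0.016. The members' standard errors ran between 0.045 and 0.11 on the log2 scale, as large as many of the differences they measure. Between base and lid on one side and core on the other, the median log2 fold change was -0.12 for the 17 genes of the 19S base and lid and -0.097 for the 15 genes of the core. The groups of arrays did not overlap, with the inhibitor lower, for 13 of the 17 base and lid genes and for 5 of the 15 core genes. No test was made of the difference between these groups of genes.

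**Figure D1:**
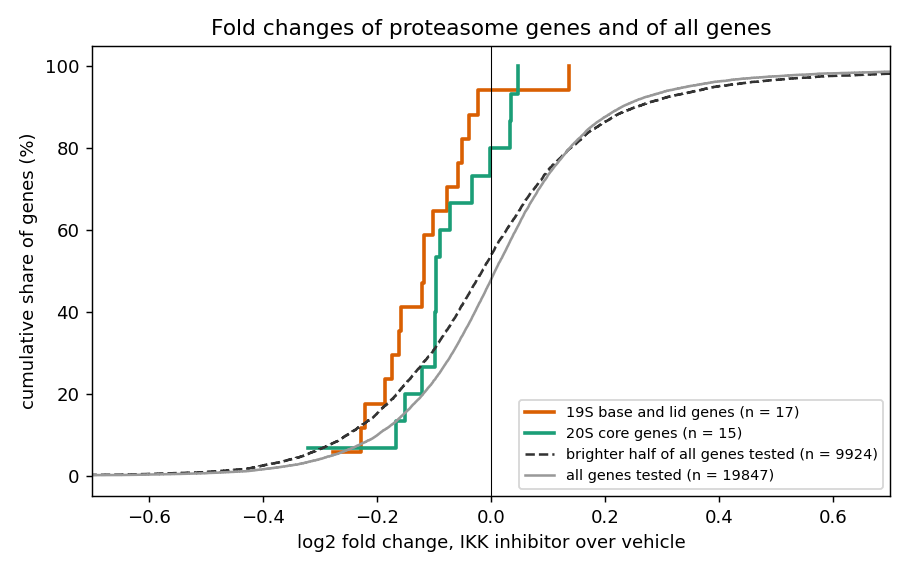
Cumulative share of genes (percent, vertical axis) against the log2 fold change of inhibitor over vehicle (horizontal axis, cropped at 0.7 on either side). The steps of the 17 base and lid genes (median -0.12) and of the 15 core genes (median -0.097) lie left of the curves of the genes above the median intensity (median -0.016) and of all genes tested (median 0.0064) for most of their genes, while their largest falls are no larger than those of many other genes.

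The promoter windows of 4 genes are shown because they belong to the called genes Psmc1 and Psmc4, to Psmb5, the member with the log2 fold change nearest to 0, and to Psmd8, the member with the highest log2 fold change. Each window runs from 250 bases before to 50 bases after a RefSeq gene start on GRCm38.p6, written 5′ to 3′ on the gene's strand. Capitals mark letters that match the core of the antioxidant response element (TGACNNNGC), the CCAAT box (CCAAT), the GC box (GGGCGG) or the kappa B motif, searched on both strands. No base of these 4 windows fell in more than 1 motif.
Psmc1 (chr12:100109952-100110251, + strand): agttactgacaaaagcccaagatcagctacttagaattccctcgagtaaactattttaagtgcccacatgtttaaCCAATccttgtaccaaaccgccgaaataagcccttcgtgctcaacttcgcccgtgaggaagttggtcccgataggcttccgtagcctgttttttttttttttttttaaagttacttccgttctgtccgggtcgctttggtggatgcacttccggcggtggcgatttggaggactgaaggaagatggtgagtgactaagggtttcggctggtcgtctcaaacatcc
Psmc4 (chr7:28050043-28050342, - strand): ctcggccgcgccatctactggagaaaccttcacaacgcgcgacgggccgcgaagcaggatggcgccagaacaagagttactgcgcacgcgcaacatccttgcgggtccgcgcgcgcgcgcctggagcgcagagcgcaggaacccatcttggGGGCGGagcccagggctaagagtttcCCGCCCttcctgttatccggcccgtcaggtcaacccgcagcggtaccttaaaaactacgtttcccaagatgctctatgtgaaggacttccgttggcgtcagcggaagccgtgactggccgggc
Psmb5 (chr14:54617946-54618245, - strand): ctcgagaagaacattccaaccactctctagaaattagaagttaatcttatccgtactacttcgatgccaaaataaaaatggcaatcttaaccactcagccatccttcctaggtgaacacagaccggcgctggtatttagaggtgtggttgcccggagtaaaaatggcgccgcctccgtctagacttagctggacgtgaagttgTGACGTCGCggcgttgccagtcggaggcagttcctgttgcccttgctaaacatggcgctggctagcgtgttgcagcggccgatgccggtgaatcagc
Psmd8 (chr7:29180624-29180923, - strand): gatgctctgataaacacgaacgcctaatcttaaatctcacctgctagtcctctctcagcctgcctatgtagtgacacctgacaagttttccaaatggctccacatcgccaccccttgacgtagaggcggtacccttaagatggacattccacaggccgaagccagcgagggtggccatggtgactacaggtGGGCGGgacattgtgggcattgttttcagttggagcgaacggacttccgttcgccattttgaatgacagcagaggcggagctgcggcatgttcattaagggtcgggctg

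Psmc1 held a CCAAT box, Psmc4 held 2 GC boxes on opposite strands, Psmb5 held an antioxidant response element core that starts 47 bases before the gene start, and Psmd8 held a GC box. RefSeq windows were matched for 28 of the 35 members, 30 windows in all. The GC box occurred in 18 of these 30 windows (60.0%), against 35.7% of all 32851 windows in the table. CCAAT letters occurred in 11 (36.7%), against 37.4% of all windows. The antioxidant response element core was found in 5 (16.7%), those of Psmb5, Psmb6, Psmc6, Psmd9 and Psmd12, against 12.4% of all windows. The kappa B motif was found in 5 (16.7%), those of Psma6, Psma7, Psmd11, Psmd12 and Psmd13, against 8.46%. A match of letters describes the window and does not show that a factor binds it.

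In the 19S base all 9 genes had log2 fold changes below 0, beside 54.0% of genes at or above the median intensity. The 2 called members are among its 6 ATPase genes, Psmc1 to Psmc6. Their ring grips the substrate, opens the gate of the core and feeds the chain into it. The ATPase genes were set apart from the rest of the base after their values had been seen. Psmc1 (Rpt2, probe set 10397741) had intensities of 933, 952 and 963 on the inhibitor arrays, against 1082, 1114 and 1139 on the vehicle arrays. The groups did not overlap, and the log2 fold change was -0.23 ± 0.047 (SE), with an adjusted p of 0.0234 by limma. A further probe set of Psmc1 (10439878) had a smaller log2 fold change of -0.12, overlapped between the groups and was not called when every probe set was tested singly (adjusted p = 0.248 by limma).

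Psmc4 (Rpt3, probe set 10561356) had intensities of 1604, 1654 and 1562 with the inhibitor, against 1852, 1906 and 1860 with vehicle. Every inhibitor array was thus below every vehicle array, and the log2 fold change was -0.22 ± 0.048 (SE), with an adjusted p of 0.0272 by limma. Both calls depend on the arrays and the scaling: without inhibitor array 1 the adjusted p by limma was 0.0944 for Psmc1 and 0.0965 for Psmc4, and with each array centred on its median it was 0.0703 and 0.0864. Neither gene was called without vehicle array 1, 2 or 3, and Psmc4 was not called without inhibitor array 3 (adjusted p = 0.067).

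Of the other ATPase genes, Psmc3 (Rpt5) came closest to the threshold. Its intensities were 586, 586 and 599 with the inhibitor and 676, 673 and 650 with vehicle. The groups lay apart, with a log2 fold change of -0.17 ± 0.046 (SE) and an adjusted p of 0.0516 by limma. Psmc2 (Rpt1) had a log2 fold change of -0.16, Psmc6 (Rpt4) of -0.12 and Psmc5 (Rpt6) of -0.058, and Psmc5 was the ATPase gene whose groups overlapped. The median over the 6 ATPase genes was -0.17, a level 11.0% lower than with vehicle. Relative to each gene's mean over the arrays, the median of the 6 was -0.098, -0.090 and -0.060 on the log2 scale on inhibitor arrays 1, 2 and 3, and 0.084, 0.074 and 0.10 on vehicle arrays 1, 2 and 3. By the same measure the median over all genes tested was 0.025, -0.031 and 0.021 on inhibitor arrays 1, 2 and 3. On vehicle arrays 1, 2 and 3 it was 0.016, -0.0082 and -0.013. The ATPase median thus lay below that of all genes on all 3 inhibitor arrays and above it on all 3 vehicle arrays. Since the arrays were not scaled to each other, the order among the inhibitor arrays also depends on these levels.

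The remaining base genes encode the scaffold subunits Rpn1 and Rpn2 and the ubiquitin receptor Rpn10, and none of them was called. For Psmd4 (Rpn10), which binds ubiquitin chains, intensities were 804, 791 and 850 with the inhibitor and 870, 868 and 915 with vehicle. These groups did not overlap, and the log2 fold change was -0.12 (95% interval -0.24 to 0.0078). Psmd1 (Rpn2) had a log2 fold change of -0.10 without overlap. Psmd2 (Rpn1) had -0.039 with overlap on its brighter probe set and -0.094 without overlap on the other.

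**Figure D2:**
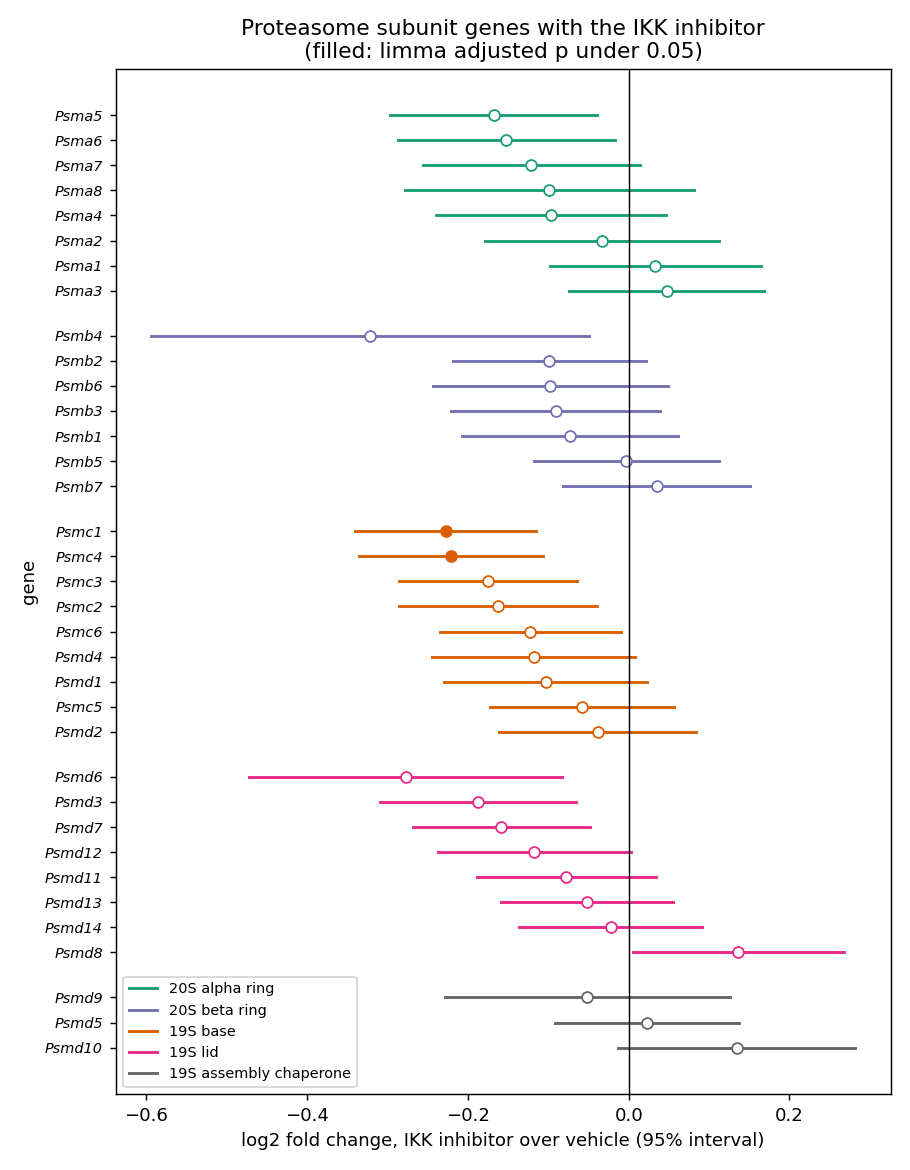
Log2 fold change of inhibitor over vehicle (horizontal axis) with its 95% interval from the limma fit for each of the 35 genes (vertical axis), by place in the proteasome. Filled points mark the 2 genes called, Psmc1 and Psmc4. All 9 base genes lie left of 0, and Psmb4 has the widest interval.

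In the lid, 7 of the 8 genes had log2 fold changes below 0, beside 54.0% of genes at or above the median intensity. For 6 the inhibitor arrays lay wholly below the vehicle arrays, beside 17.2% of all genes tested and 29.5% at or above that intensity. None of the 8 passed the limma test over all genes. At an unadjusted p under 0.05, 3 of the 8 were lower, beside 23.5% of genes at or above the median intensity, and 1 was higher. The lid is a scaffold of PCI-domain subunits around the deubiquitinase Rpn11. Psmd6 (Rpn7) had intensities of 1007, 1074 and 877 with the inhibitor, against 1222, 1146 and 1207 with vehicle. Inhibitor array 3 was the lowest, and the log2 fold change was -0.28 ± 0.082 (SE, adjusted p = 0.0715 by limma), or -0.20 without that array. Psmd3 (Rpn3) had 1070, 1043 and 1067 with the inhibitor and 1218, 1155 and 1251 with vehicle. Its groups lay apart, with a log2 fold change of -0.19 ± 0.051 (SE) and an adjusted p of 0.0576. Psmd7 (Rpn8), the partner of Rpn11, had 1464, 1456 and 1424 with the inhibitor and 1633, 1637 and 1577 with vehicle. That is a log2 fold change of -0.16 ± 0.046 (SE, adjusted p = 0.0705 by limma).

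Psmd14 encodes Rpn11, the metalloprotease that cuts the ubiquitin chain off the substrate. It had intensities of 2709, 2677 and 2585 with the inhibitor and 2672, 2660 and 2765 with vehicle. The groups overlapped, and the log2 fold change was -0.023 (95% interval -0.14 to 0.092). Psmd12 (Rpn5) had a log2 fold change of -0.12, Psmd11 (Rpn6) of -0.077 and Psmd13 (Rpn9) of -0.052, each without overlap. Psmd8 (Rpn12) went the other way. Its intensities were 2186, 2097 and 2245 with the inhibitor and 1903, 2064 and 1973 with vehicle, so that the groups did not overlap, with the inhibitor higher. The log2 fold change of 0.14 ± 0.055 (SE) did not pass (adjusted p = 0.168 by limma), although it did with an intensity trend and robust prior (0.0181).

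The 20S core had no called gene. At an unadjusted p under 0.05 by limma, 3 of its 15 genes were lower, a share near the 13.9% of all genes and the 23.5% of genes at or above the median intensity. Of the 7 beta genes 6 had log2 fold changes below 0, beside 54.0% of genes at or above the median intensity, with a median of -0.091 over the 7. The catalytic subunit genes had log2 fold changes of -0.0029 (Psmb5), 0.035 (Psmb7) and -0.097 (Psmb6), the last of them at the median of all members. Psmb5 (beta 5, the chymotrypsin-like site and the main target of bortezomib) had intensities of 5288, 5608 and 5322 with the inhibitor and 5474, 5355 and 5417 with vehicle. The groups overlapped, and the log2 fold change was -0.0029 (95% interval -0.12 to 0.11). Its sign turned in 3 of 17 other settings at the gene level.

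Psmb7 (beta 2, the trypsin-like site) had 2512, 2506 and 2532 with the inhibitor and 2362, 2505 and 2506 with vehicle. These values overlapped, with a log2 fold change of 0.035 (95% interval -0.081 to 0.15). Psmb6 (beta 1, the caspase-like site) had 1456, 1618 and 1471 with the inhibitor, against 1564, 1614 and 1681 with vehicle. It overlapped too, with a log2 fold change of -0.097 (95% interval -0.24 to 0.049). The intervals of all 3 catalytic genes include 0, which does not show that their levels were equal.

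Psmb4 (beta 7), a structural subunit, had the lowest log2 fold change of all members. Its intensities were 2278, 2369 and 1750 with the inhibitor and 2714, 2580 and 2635 with vehicle. The groups did not overlap, but inhibitor array 3 stood well below the other two. The log2 fold change was -0.32 ± 0.11 (SE, adjusted p = 0.122 by limma), and without that array it was -0.19 (adjusted p = 0.0967). Psmb2 (-0.098) and Psmb3 (-0.091) lay apart between the groups, and Psmb1 (-0.073) overlapped. A further probe set of Psmb3 gave -0.013 with overlap.

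Alpha subunit genes, whose products form the outer rings and the gate, split 6 below and 2 above 0. At or above the median intensity 54.0% of genes lay below 0. Psma5 (alpha 5) had intensities of 919, 910 and 939 with the inhibitor and 1094, 1001 and 1016 with vehicle. The groups lay apart, the log2 fold change was -0.17 ± 0.054 (SE, adjusted p = 0.0927 by limma), and the further probe set of Psma5 gave -0.15, also without overlap. Psma6 (alpha 1) had 2162, 2149 and 1955 with the inhibitor and 2328, 2285 and 2342 with vehicle, a log2 fold change of -0.15 ± 0.057 (SE, adjusted p = 0.139 by limma). Psma3 (alpha 7) had the highest value of the core. Its intensities were 2391, 2204 and 2318 with the inhibitor and 2203, 2246 and 2238 with vehicle, which overlapped, and the log2 fold change was 0.047 (95% interval -0.074 to 0.17). All 3 probe sets of Psma3 lay between 0.019 and 0.047. Psma1 (0.033), Psma2 (-0.033), Psma4 (-0.097) and Psma7 (-0.12) overlapped between the groups. Psma8, the alpha 4 variant of the testis, was the dimmest member, with 63.9 to 73.7 on inhibitor arrays and 69.8 to 79.4 on vehicle arrays. It was the single member below the median intensity.

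**Figure D3:**
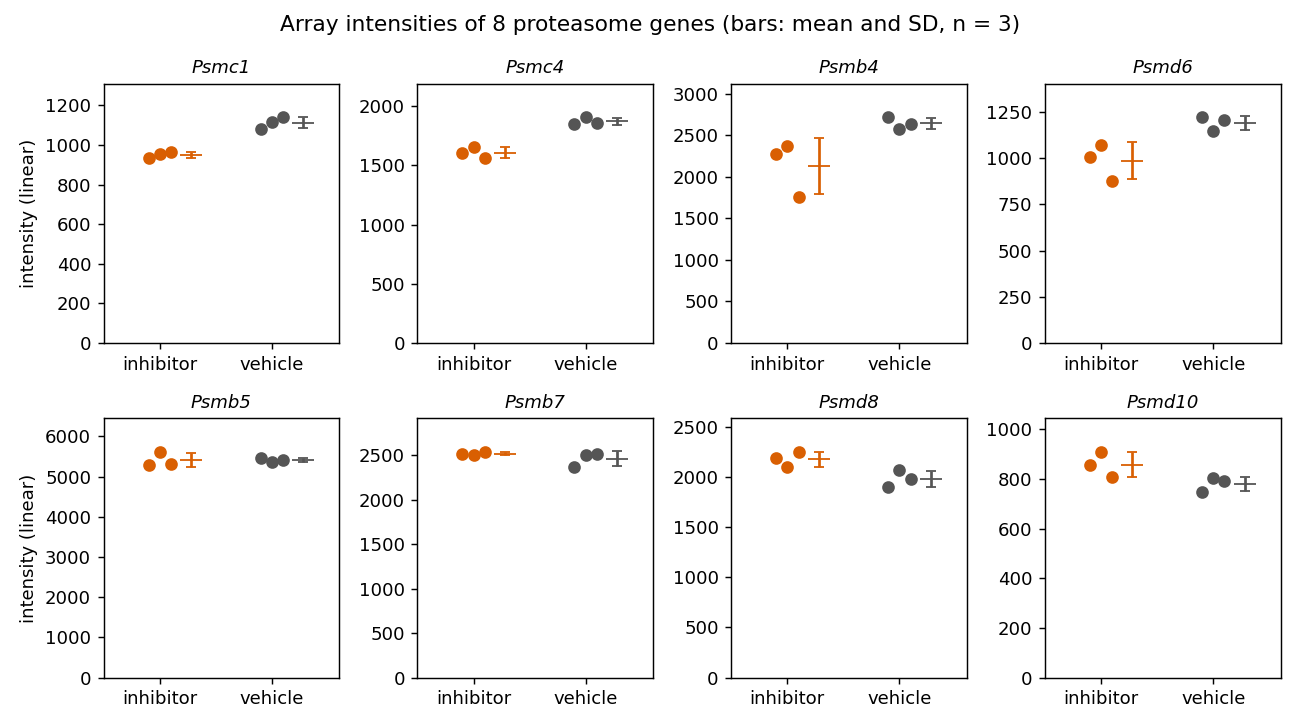
Array intensities on a linear scale (vertical axes, from 0) of 8 members with the inhibitor (left) and vehicle (right). Points are arrays, and the bars beside them are the mean and SD (n = 3). The groups lie apart for Psmc1, Psmc4, Psmb4, Psmd6, Psmd8 and Psmd10 and overlap for Psmb5 and Psmb7, and inhibitor array 3 is the low point of Psmb4 and Psmd6.

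Of the 3 genes of chaperones that assemble the base, none was called by limma, none had an unadjusted p under 0.05, and 2 of 3 lay above 0. Psmd10 (gankyrin) had intensities of 855, 907 and 807 with the inhibitor, against 747, 802 and 790 with vehicle. The groups did not overlap, with the inhibitor higher, and the log2 fold change was 0.13 ± 0.062 (SE, adjusted p = 0.226 by limma). For Psmd5 (S5b) values of 1618, 1587 and 1526 with the inhibitor stood against 1532, 1554 and 1571 with vehicle. They overlapped, with a log2 fold change of 0.023. For Psmd9 (p27) they were 426, 478 and 433 with the inhibitor and 425, 483 and 479 with vehicle, also overlapping, with -0.051.

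Among genes that work with the constitutive subunits, 2 of the 3 inducible subunit genes of the immunoproteasome fell. For this and the related lists below, the background of calls was 6.75% of all genes lower and 7.10% higher. At or above the median intensity it was 12.2% lower and 11.2% higher. Psmb8 and Psmb9 replace the catalytic beta 5 and beta 1 subunits in cells exposed to interferon. Psmb9 had intensities of 576, 600 and 595 with the inhibitor and 744, 705 and 741 with vehicle. The groups lay far apart, and it fell by 0.31 on the log2 scale (adjusted p = 0.00998 by limma). Psmb8 had 817, 832 and 819 with the inhibitor and 934, 939 and 975 with vehicle, and it fell by 0.21 (adjusted p = 0.0304), a call lost without inhibitor array 1 or 3 or any 1 vehicle array and with median centring (0.0984). Psmb10 had a log2 fold change of -0.069 and was not called.

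Within each array, the log2 ratio of Psmb8 to Psmb5 differed by -0.20 between inhibitor and vehicle, and that of Psmb9 to Psmb6 differed by -0.21. For both, all 3 inhibitor arrays lay below the 3 vehicle arrays. The exact permutation p was 0.1 for each (2-sided), the smallest that 3 arrays against 3 allow, and 0.15 after adjustment over the 3 pairs. The ratio of Psmb10 to Psmb7 differed by -0.10 (exact permutation p = 0.2, adjusted 0.2). With 3 arrays a group this permutation test cannot reach 0.05, so it does not settle whether the inducible genes and their constitutive counterparts differed in response.

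Of 5 genes of 20S assembly chaperones 2 fell, Psmg1 (PAC1) by 0.24 on the log2 scale (adjusted p = 0.0204) and Psmg2 (PAC2) by 0.18 (adjusted p = 0.0495, both by limma). These 2 proteins pair to start the alpha ring. The Psmg1 call was lost without any array but inhibitor array 2, and the Psmg2 call without any 1 array. Psmg4 had a log2 fold change of -0.12 and Pomp, the maturation factor of the beta ring, of -0.079, and neither passed. Of the 5 genes of activators and the inhibitor PI31 none was called, and 1 had an unadjusted p under 0.05 by limma. Psmf1 (PI31) had a log2 fold change of -0.14, Psme2 of -0.054, Psme1 of -0.045 and Psme3 of -0.037.

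Of 4 further 19S genes analysed none was called. Uchl5, a deubiquitinase of the particle, had a log2 fold change of -0.18 (adjusted p = 0.0827 by limma) and was the single gene of the 4 with an unadjusted p under 0.05. Sem1 (0.20), Ube3c (-0.066) and Usp14 (-0.036) had larger unadjusted p-values. For Sem1 the inhibitor arrays lay wholly above the vehicle arrays, as for 22.5% of genes at or above the median intensity. Its log2 fold change was above those of all members, of which Psmd8 had the highest (0.14). Adrm1 and Paaf1, listed with these genes, were not among the genes tested. Among 7 genes of shuttle factors and the VCP segregase, which bring ubiquitylated proteins to the proteasome, Ufd1 fell by 0.22 (adjusted p = 0.0446) and Ubqln4 by 0.19 (adjusted p = 0.0498, both by limma). The Ufd1 call was lost without any array but inhibitor array 2, and the Ubqln4 call without any 1 array. Ubqln1 (-0.12) and Ubqln2 (0.12) did not pass.

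Over 9 genes of transcription factors that act on proteasome promoters, and of an enzyme that processes NRF1, the median log2 fold change was 0.090, with 1 called higher and 1 lower. Nfe2l1, the gene of NRF1, had intensities of 2004, 2077 and 2077 with the inhibitor and 1932, 1938 and 1905 with vehicle. Its groups did not overlap, with the inhibitor higher, but the log2 fold change of 0.092 did not pass (adjusted p = 0.259 by limma). Nfe2l2 (NRF2) had a similar log2 fold change of 0.090 (adjusted p = 0.301). Mafg, a small MAF partner of both, had a log2 fold change of 0.35 and was called higher (adjusted p = 0.00583). The other small MAF genes listed, Maff (0.14) and Mafk (-0.094), were not called. Nfyb, a subunit of the CCAAT-binding factor NF-Y, fell by 0.27 (adjusted p = 0.0337 by limma), a call lost without inhibitor array 1 or 3 or any 1 vehicle array. The genes of the other NF-Y subunits, Nfya (0.021) and Nfyc (-0.015), overlapped between the groups and were not called. Ngly1, whose product processes NRF1, had 0.096 and did not pass.

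The chaperonin CCT, another large cytosolic complex with 8 different subunits, is set beside the proteasome for scale. Of its 8 genes 5 were called lower, beside 6.75% of all genes tested and 12.2% of those at or above the median intensity. All 8 lie at or above that intensity. All 8 also had inhibitor arrays wholly below vehicle arrays, beside 17.2% of all genes and 29.5% at or above the median intensity. Their median log2 fold change was -0.21. Cct4 fell by 0.31, Cct3 and Cct7 by 0.28, Cct8 by 0.22 and Cct2 by 0.20 on the log2 scale. The calls of Cct2 and Cct8 were lost with median centring (adjusted p = 0.0988 and 0.075 by limma), that of Cct2 without any 1 array and that of Cct8 without inhibitor array 1 or any 1 vehicle array. Those of Cct3 and Cct7 were lost without inhibitor array 1 or vehicle array 3. The falls of Psmc1 and Psmc4, -0.23 and -0.22, are of the size of Cct8, and the core's median of -0.097 is closer to 0. No test of the difference between the complexes was made.

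**Figure D4:**
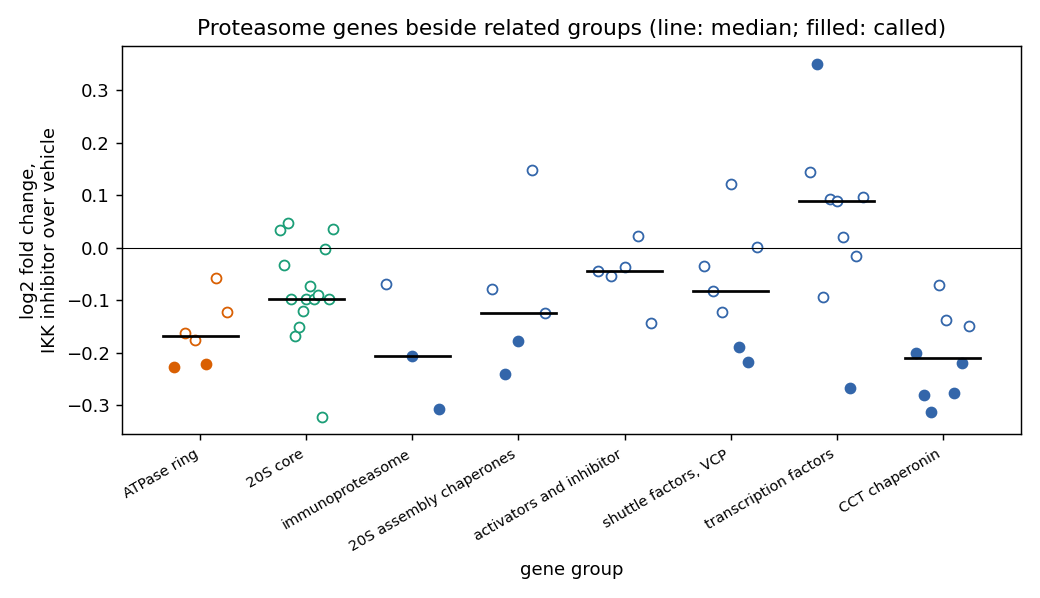
Log2 fold change of inhibitor over vehicle (vertical axis) of single genes (points; filled where called by limma at an adjusted p under 0.05) by gene group (horizontal axis), with the median of each group as a line. Medians run from -0.21 for the CCT chaperonin and the immunoproteasome over -0.17 for the ATPase ring and -0.097 for the 20S core to 0.090 for the transcription factors. The ATPase ring was set apart from the rest of the base after its values had been seen. The base as a whole had a median of -0.12, and the lid, which is not drawn, had -0.097.

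How many members are called lower depends strongly on the settings of the test. It was 0 without inhibitor array 1, without any 1 vehicle array, with a replicate block and with median centring. It was 12 (34.3%) with an intensity trend and robust prior, where 11.2% of all genes were called lower. Of the 35 members 34 lie at or above the median intensity, and the share of such genes is not given for this setting. Those 12 were Psmc1, Psmc2, Psmc3, Psmc4, Psmc6, Psmd3, Psmd6, Psmd7, Psmd12, Psma5, Psma6 and Psmb2, so 9 of them belong to the base and lid and 3 to the core. Psmd8 was then called higher, as were 9.97% of all genes. When genes below the median intensity were left out, 11 of 34 members were called lower, against 22.1% of the genes tested. The share of all genes called lower was 3.43% with the replicate block, 4.80% with median centring, 8.08% with quantile normalization, 6.53% with a floor of 1 and 10.6% with a floor of 64. It was 7.52% for log2 of intensity plus 16, 12.1% above the 25th percentile, 6.56% for the mean of probe sets, 6.54% for probe sets singly and 11.1% with array weights. Without inhibitor array 1, 2 or 3 it was 2.25%, 6.61% and 3.86%, and without vehicle array 1, 2 or 3 it was 3.42%, 2.0% and 2.12%. Between 27 and 31 members had a log2 fold change below 0 in all settings that keep 1 value for each of the 35 genes. For some settings this was automatic. The replicate block, the floor of 1 and the intensity trend left the members' log2 fold changes unchanged, with 29 below 0. Median centring moved all of them by the same amount. Quantile normalization gave 30, and leaving out 1 array gave 27 to 29. All settings reuse the same arrays, so these counts are not independent evidence on the direction.

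**Figure D5:**
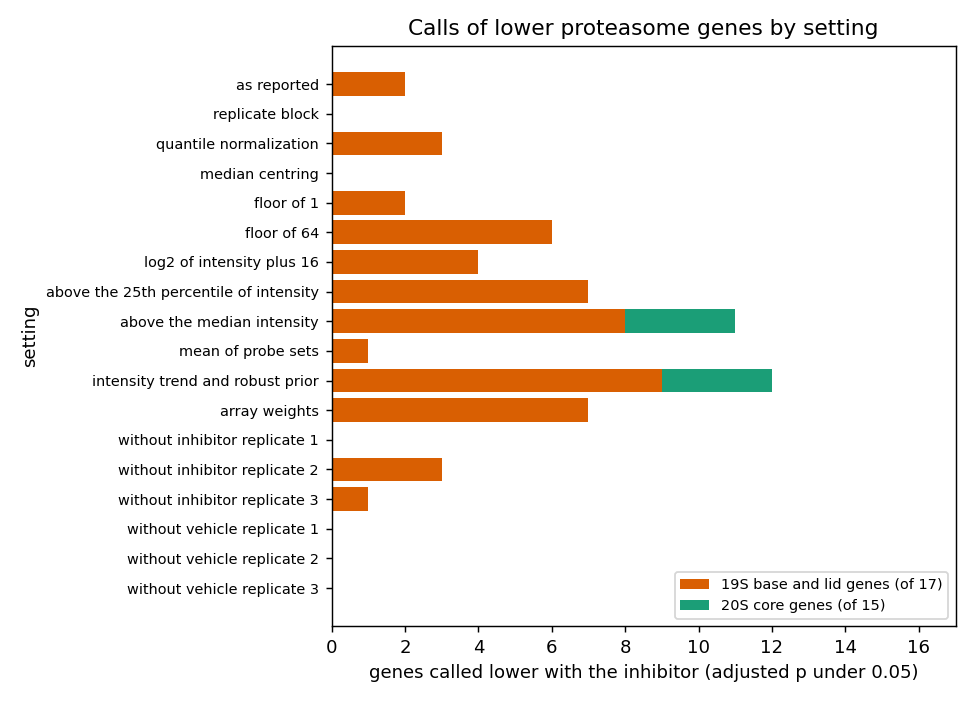
Number of base and lid genes (of 17) and of core genes (of 15) called lower with the inhibitor (horizontal axis) in each setting of the fit (vertical axis). The count is 2 as reported, 0 without inhibitor array 1 and without any 1 vehicle array, and 12 with an intensity trend and robust prior; core genes appear in 2 settings, with 3 genes each.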

How the data were processed

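The intensity values that the authors deposited came from Expression Console by Affymetrix, as the submitters' processing notes name it; the sources used here state neither version nor summarization. Values ran from 0.71 to 8186 on a linear scale, and no detection calls were used. Values below 16 (5.94%) were set to 16 and log2 was taken, with no further scaling. Probe sets were named through the platform annotation (1 symbol for 21789), with symbols updated by Entrez number for 21698. The brightest probe set stood for each gene, and 91 genes that never exceeded the floor stayed out of the test. Groups and replicate numbers came from the treatment labels and titles. The fit was limma's (version 3.58.1, R 4.3.3), inhibitor against vehicle (2-sided, Benjamini-Hochberg over 19847 genes, threshold 0.05); it was tested on simulated data. The members, lists and settings were chosen with earlier results of these data known. Named were, by rule, called members, the 3 highest and 3 lowest, and 8 fixed members. Of each related list they were the called genes, the 4 with the smallest p, and Nfe2l1, Nfe2l2 and Pomp. Array values of Psmc3, Psmd3, Psmd7, Psma5 and Psma6 were added after they were seen. Log2 fold changes of Maff, Mafk, Nfya and Nfyc were also added after they were seen. The alternatives were a replicate block, quantile normalization, median centring, floors of 1 and 64, log2 of intensity plus 16, filters at the 25th percentile and median of intensity, the mean of probe sets, probe sets singly, an intensity trend with robust prior, array weights, and leaving out each array.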

Additional observations from a re-analysis of the deposited data

How the results depend on the processing

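The number of members called lower was 2 as reported. It was 0 with a replicate block and with median centring, 1 with the mean of probe sets, 4 with log2 of intensity plus 16, 6 with a floor of 64, 7 above the 25th percentile and with array weights, 11 above the median intensity and 12 with an intensity trend and robust prior, where 1 was called higher; leaving out 1 array gave 0 to 3. The filters test fewer genes; the other causes were not tested. The median log2 fold change of the members was -0.13 with median centring and -0.12 with quantile normalization, that of the core -0.13 with median centring, and that of the base and lid -0.15 and -0.13; leaving out 1 array gave -0.11 to -0.082, -0.11 to -0.071 and -0.13 to -0.10. Over all genes, 681 were called lower with a replicate block, 890 higher with median centring, 2208 lower above the median intensity, 2220 lower with the intensity trend, and 2132 higher and 2202 lower with array weights; leaving out 1 array gave 790 to 1535 higher and 396 to 1310 lower. The median over all genes, which was not called, turned to -0.019 with quantile normalization, -0.027 with median centring and -0.016 above the median intensity, and lay between -0.0067 and 0.031 when 1 array was left out. The labels do not say whether same-numbered arrays of the 2 groups belong together. Deviations of same-numbered arrays correlated at 0.24, 0.13 and -0.093 over genes, and not every array correlated best with its own number. These mixed values do not settle whether the arrays were paired. With the replicate block the adjusted p by limma was 0.0609 for Psmc1 and 0.0667 for Psmc4. The 3 ratios of inducible to constitutive genes kept their direction in all settings run. For most settings this was automatic. Median centring, the floors, the filters, the mean of probe sets, the intensity trend and the array weights left these ratios unchanged. Quantile normalization, log2 of intensity plus 16 and leaving out 1 array were the settings that altered them. Probe sets singly and the block were not run for them.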
